A study of Mus musculus with 8 samples.

Results

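The corneal endothelium is the single cell layer on the inner face of the cornea. Its transport and marker genes are described here by 8 genes chosen by name, Slc4a11, Slc4a4, Atp1b1, Car2, Car3, Cdh2, Alcam and Ptn, of the 23597 genes in the table. Messenger RNA was sequenced from whole corneas of dry eye mice, which had been injected with scopolamine, a blocker of muscarinic receptors, and were sampled on day 14. In 4 samples, named ICI, the mice also received ICI 118551, a blocker of the β2-adrenergic receptor. The other 4, named Scop, are from such mice that did not receive it. All 8 samples thus carry the scopolamine treatment, and no untreated cornea is among them. Each sample pooled 4 corneas. The labels give neither strain, sex nor age, nor which mice gave which pool, so the tests compare these 8 pools only, and their spread may be partly technical.

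The endothelium keeps the stroma clear by moving water out of it against a steady leak. The sodium pump on its lateral membrane, a catalytic alpha subunit with a beta subunit such as Atp1b1, sets up the sodium gradient. Bicarbonate carriers use that gradient to move ions and, with them, water, and carbonic anhydrases are enzymes that serve this transport. In humans, loss of SLC4A11 causes an inherited endothelial dystrophy with a swollen cornea. Alcam, Cdh2 and Ptn carry no ions. They are used as surface or secreted markers of these cells, but the epithelium, stroma and nerves of a whole cornea can express some of them too.

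Promoter sequences of 4 of the genes, from RefSeq on the mouse build GRCm38.p6, are shown because these genes differ in how they varied over the libraries, described below. Atp1b1 and Slc4a4 were correlated, Alcam had a high correlation with Slc4a4 that passed the threshold only in some alternatives, and Ptn passed with none. Each sequence runs 5′ to 3′ on the gene's own strand, from 250 bases before a transcription start to 50 after it. Capitals mark the GC box GGGCGG, searched on both strands. The windows are chr1:164458306-164458605 (minus strand) for Atp1b1, chr5:88887010-88887309 (plus) for 1 start of Slc4a4, chr16:52453032-52453331 (minus) for Alcam and chr6:36810130-36810429 (minus) for Ptn.
Atp1b1: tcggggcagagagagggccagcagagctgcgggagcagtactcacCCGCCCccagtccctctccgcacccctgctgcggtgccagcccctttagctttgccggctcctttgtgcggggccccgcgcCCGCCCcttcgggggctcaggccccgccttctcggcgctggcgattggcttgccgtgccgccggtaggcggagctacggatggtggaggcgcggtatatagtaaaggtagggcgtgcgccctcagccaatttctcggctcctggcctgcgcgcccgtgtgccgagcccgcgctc
Slc4a4: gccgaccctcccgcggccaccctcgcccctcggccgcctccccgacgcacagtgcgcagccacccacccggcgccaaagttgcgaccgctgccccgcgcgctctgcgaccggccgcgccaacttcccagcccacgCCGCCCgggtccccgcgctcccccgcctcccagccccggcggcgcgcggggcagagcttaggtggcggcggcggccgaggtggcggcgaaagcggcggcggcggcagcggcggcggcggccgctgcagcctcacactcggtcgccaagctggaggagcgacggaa
Alcam: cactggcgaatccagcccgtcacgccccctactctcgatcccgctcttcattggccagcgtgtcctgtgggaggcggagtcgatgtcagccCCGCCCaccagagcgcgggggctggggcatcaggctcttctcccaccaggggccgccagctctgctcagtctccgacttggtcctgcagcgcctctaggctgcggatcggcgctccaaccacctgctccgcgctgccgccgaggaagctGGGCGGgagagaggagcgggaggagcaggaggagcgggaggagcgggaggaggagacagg
Ptn: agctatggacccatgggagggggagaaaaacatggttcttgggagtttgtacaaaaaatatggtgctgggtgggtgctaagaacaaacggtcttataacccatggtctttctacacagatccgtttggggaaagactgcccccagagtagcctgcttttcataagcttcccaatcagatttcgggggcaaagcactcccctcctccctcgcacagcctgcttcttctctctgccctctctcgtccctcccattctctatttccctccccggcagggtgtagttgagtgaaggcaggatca

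The GC box was found at 2 places in the Atp1b1 window, 1 in the Slc4a4 window shown, 2 in the Alcam window and 0 in the Ptn window, and 35.7% of 32851 mouse promoter windows of this length held it. The windows were 71% G or C for Atp1b1, 80% for Slc4a4, 69.7% for Alcam and 52% for Ptn. RefSeq gives another start of Slc4a4, at chr5:89027716-89028015 (plus), whose window was 48.3% G or C and held 0 GC boxes. Which start was used in these corneas cannot be read from FPKM per gene. The letters GCCNNNGGC, the motif of TFAP2 factors, were found in 0 of these windows on either strand, and in 16.6% of all windows. No match says only that these letters are not in these windows.

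Car2 and Car3 are paralogs that lie side by side on chromosome 3, Car3 at 14863538 to 14872381 and Car2 at 14886269 to 14900770 of GRCm38.p6, both on the plus strand. The stretch where their coding sequences are most alike is shown, since reads of 1 could be counted for the other where the genes are identical. It covers bases 310 to 369 of each coding sequence, and capitals mark the 9 bases that differ.
Car2: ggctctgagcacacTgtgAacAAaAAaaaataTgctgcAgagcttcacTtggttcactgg
Car3: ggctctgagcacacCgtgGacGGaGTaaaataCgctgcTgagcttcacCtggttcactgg

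Over the whole coding sequences, of 780 bases each, 504 of 778 aligned bases were identical (64.8%). The longest identical run was 14 bases. In FPKM, Car2 was 0.0177 of Car3 in Scop replicate 3 and at most 0.00439 of it in the other libraries.

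Values are FPKM, fragments scaled by gene length and by library depth, as the authors deposited them. The fragments counted per library lay between 34354346 in Scop replicate 3 and 39885822 in Scop replicate 1. Fold changes are ICI over Scop on log2(FPKM + 1), a scale that understates the change of genes at low FPKM, and are given with limma's standard error. The test was two-sided and covered 12100 genes, those averaging 0.5 FPKM or more, and genes were called at an adjusted p (Benjamini-Hochberg) under 0.05. Of the 8 genes, 6 passed this filter, and Car2 and Cdh2 did not. In these bulk samples, fewer cells of a type and less RNA per cell cannot be told apart.

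The 5 genes Slc4a11, Slc4a4, Atp1b1, Car3 and Cdh2 varied together from library to library, by 3.07-fold to 14.1-fold between the highest and the lowest library. Each was highest in ICI replicate 1, followed by Scop replicates 1 and 2, and lowest in Scop replicate 3 with Scop replicate 4 next. Alcam and Ptn stayed within 1.24-fold and 1.49-fold. Of the 6 tested genes, 0 were called higher and 0 lower in ICI by limma (Benjamini-Hochberg), and 0 had an unadjusted p under 0.05. Among all 12100 genes tested, 0% were called higher and 0% lower, and 4.56% were higher and 7.46% lower at an unadjusted p under 0.05. Limma-voom on recovered fragments also called 0 genes. The groups overlapped for all 8 genes, while 6.98% of all tested genes had groups that did not overlap.

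**Figure D1:**
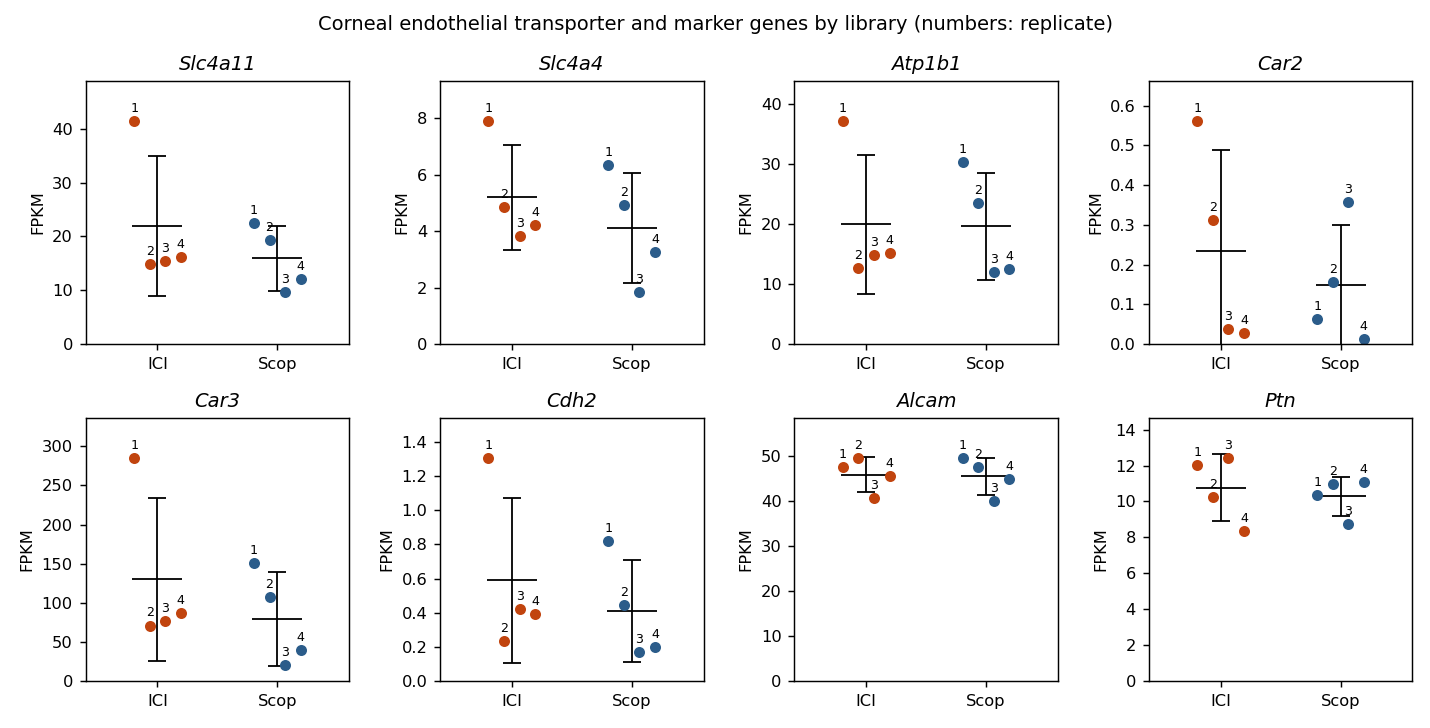
FPKM of the 8 genes in each library, 1 panel per gene with its own linear axis, ICI left of Scop. Points are libraries numbered by replicate, and bars are the mean ± SD of 4 libraries (where an SD exceeds its mean, the bar is clipped at 0). ICI replicate 1 was the highest library in Slc4a11, Slc4a4, Atp1b1, Car2, Car3 and Cdh2, and the groups overlapped in every panel.

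Slc4a11 encodes a membrane transporter of the bicarbonate carrier family that moves protons and ammonia rather than bicarbonate, and lies on chromosome 2 at 130684107 to 130697519, minus strand. It stood at 41.4, 14.8, 15.5 and 16.1 FPKM in ICI replicates 1 to 4, against 22.6, 19.4, 9.65 and 12.05 FPKM in Scop replicates 1 to 4. ICI replicate 1 was 2.68-fold the mean of the other ICI libraries, whose values lay among those of Scop. The means were 22.0 ± 12.97 FPKM in ICI and 15.9 ± 6.07 in Scop (SD over n = 4 libraries per group, here and below). The log2 fold change was 0.38 (SE 0.34, 95% interval -0.38 to 1.13), with a limma adjusted p of 0.687. Without ICI replicate 1 it was 0.03 and without Scop replicate 3 it was 0.18. With both left out it was -0.16, an alternative added after the data were seen. ICI replicate 1 was the highest and Scop replicate 3 the lowest library for this gene, so leaving out both could only lower the value.

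Slc4a4 encodes the electrogenic sodium bicarbonate cotransporter, which loads bicarbonate into the endothelial cell from the stromal side. It lies on chromosome 5 at 88793858 to 89239656, plus strand. Its values were 7.89, 4.84, 3.82 and 4.21 FPKM in ICI replicates 1 to 4, against 6.32, 4.93, 1.85 and 3.27 FPKM in Scop replicates 1 to 4. Scop replicate 3 stood at 0.383 of the mean of the other Scop libraries, and ICI replicate 1 at 1.84 times that of the other ICI libraries. Means of 5.19 ± 1.85 FPKM in ICI and 4.09 ± 1.95 in Scop gave a log2 fold change of 0.33 (SE 0.28, 95% interval -0.30 to 0.95; limma adjusted p 0.673). This was 0.14 without ICI replicate 1, 0.08 without Scop replicate 3 and -0.11 without both.

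Atp1b1 encodes the beta 1 subunit of the sodium pump, which brings the catalytic subunit to the membrane. It lies on chromosome 1 at 164437099 to 164458355, minus strand. It measured 37.1, 12.7, 14.8 and 15.2 FPKM in ICI replicates 1 to 4, against 30.4, 23.6, 12.1 and 12.5 FPKM in Scop replicates 1 to 4. In both groups the values were split within the group, 1 high library in ICI and 2 in Scop. Means of 19.9 ± 11.5 FPKM in ICI and 19.6 ± 8.93 in Scop left a log2 fold change of -0.01 (SE 0.36, 95% interval -0.81 to 0.79; limma adjusted p 0.996). The fold change was positive with median-ratio scaling (0.00197) and quantile normalisation (0.01), and it was -0.34 without ICI replicate 1. Without both ICI replicate 1 and Scop replicate 3 it was -0.53. Of its 3081 exon bases, 575 (18.7%) are shared with Nme7 on the other strand, and the counting of strands is not given in the sources used here. Nme7 lay between 4.16 and 4.81 FPKM in all 8 libraries, and its part in the values of Atp1b1 was not tested.

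Car3 encodes a cytosolic carbonic anhydrase of low activity, otherwise known as an abundant protein of muscle and fat. It was the most variable of the 8 genes apart from Car2 and, by its mean, the highest per length. Its values were 285, 70.8, 76.0 and 87.2 FPKM in ICI replicates 1 to 4, against 150.4, 107, 20.2 and 39.7 FPKM in Scop replicates 1 to 4. ICI replicate 1 was 3.66-fold the mean of the other ICI libraries, and Scop replicate 3 was 0.204 of the mean of the other Scop libraries. Behind these values were 17261 fragments for ICI replicate 1 and 1070 for Scop replicate 3, so counting error was small against the spread. Means were 129.8 ± 104 FPKM in ICI and 79.4 ± 60.3 in Scop. The log2 fold change was 0.83 (SE 0.62, 95% interval -0.56 to 2.21; limma adjusted p 0.624), and both the fold change and its SE were the largest among the 6 tested genes. Without ICI replicate 1 it was 0.36, without Scop replicate 3 it was 0.32 and without both it was -0.15. Of 6 skeletal muscle markers, Mylpf averaged 1.45 FPKM, with 1.79 FPKM in both ICI replicate 1 and Scop replicate 3, and the other 5 (Acta1, Ckm, Myh4, Mb and Tnnt3) reached at most 0.367 FPKM in any library. Of 4 fat cell markers, Fabp4 reached 0.399 FPKM, and Adipoq, Plin1 and Retn at most 0.0785. Their part in the values of Car3 was not tested.

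Car2 encodes a cytosolic carbonic anhydrase of high activity and is often named as the endothelial enzyme. It was close to the limit of counting here. Its values were 0.561, 0.311, 0.0391 and 0.0273 FPKM in ICI replicates 1 to 4, against 0.0641, 0.157, 0.357 and 0.0142 FPKM in Scop replicates 1 to 4. These came from 43, 24, 3 and 2 fragments in ICI and from 5, 12, 24 and 1 in Scop. Car2 was high in Scop replicate 3, where Car3 was lowest. Means were 0.235 ± 0.254 FPKM in ICI and 0.148 ± 0.151 in Scop. The gene was under the filter; fitted without a filter, its log2 fold change was 0.09 (SE 0.15, limma adjusted p 0.861).

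Cdh2 encodes N-cadherin, the adhesion protein that joins neighbouring endothelial cells, and lies on chromosome 18. It stood at 1.31, 0.236, 0.420 and 0.394 FPKM in ICI replicates 1 to 4, against 0.819, 0.446, 0.172 and 0.198 FPKM in Scop replicates 1 to 4. The fragments were 513, 93, 165 and 148 in ICI and 327, 175, 59 and 71 in Scop. ICI replicate 1 was 3.74-fold the mean of the other ICI libraries. Means were 0.590 ± 0.486 FPKM in ICI and 0.409 ± 0.300 in Scop, and the mean over all libraries, 0.499 FPKM, fell just under the filter. Without a filter the log2 fold change was 0.15 (SE 0.22, limma adjusted p 0.844).

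Alcam encodes CD166, an adhesion protein of the immunoglobulin family that binds itself and CD6, and lies on chromosome 16 at 52248996 to 52453081, minus strand. Its values were 47.6, 49.6, 40.6 and 45.6 FPKM in ICI replicates 1 to 4, against 49.6, 47.6, 39.97 and 44.99 FPKM in Scop replicates 1 to 4. ICI replicate 1 was not the highest library for Alcam. Means of 45.9 ± 3.87 FPKM in ICI and 45.5 ± 4.15 in Scop gave a log2 fold change of 0.01 (SE 0.08, 95% interval -0.17 to 0.19; limma adjusted p 0.968).

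Ptn encodes pleiotrophin, a secreted growth factor that binds heparin, and lies on chromosome 6 at 36714924 to 36810179, minus strand. It measured 12.01, 10.3, 12.4 and 8.35 FPKM in ICI replicates 1 to 4, against 10.4, 10.97, 8.75 and 11.1 FPKM in Scop replicates 1 to 4. The highest and the lowest library were both ICI. Means of 10.8 ± 1.86 FPKM in ICI and 10.3 ± 1.07 in Scop gave a log2 fold change of 0.05 (SE 0.12, 95% interval -0.21 to 0.31; limma adjusted p 0.889). The 95% intervals of Alcam and Ptn were the narrowest of the 6 tested genes. The signs of both turned in some alternatives, as with the stromal score as a covariate (-0.08 for Alcam and -0.05 for Ptn).

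**Figure D2:**
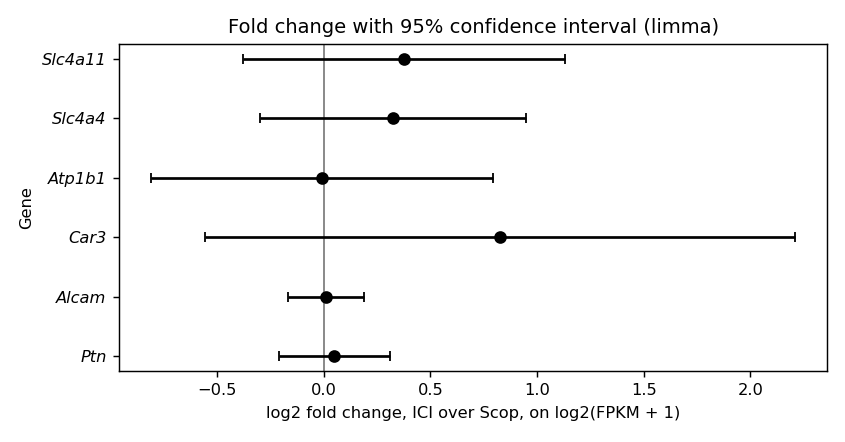
Log2 fold change (ICI over Scop, on log2(FPKM + 1)) of the 6 tested genes, with the 95% confidence interval from limma over 4 libraries per group. Every interval includes 0, and that of Car3 (-0.56 to 2.21) is the widest.

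The order of the 8 libraries was the same for Slc4a11, Atp1b1 and Car3. From high to low it was ICI replicate 1, Scop replicates 1 and 2, ICI replicates 4, 3 and 2, and Scop replicates 4 and 3. Slc4a4 and Cdh2 differed from this order only in places 4 to 6, held by the remaining ICI libraries. Of the 6 tested genes, 4 were highest in ICI replicate 1 and lowest in Scop replicate 3, as were 5.83% of all tested genes. ICI replicate 1 was at least 2-fold the mean of the other ICI libraries in 3 of the 6, against 0.942% of all tested genes. By Dixon's criterion for 4 samples it stood apart as the highest ICI library in 3 of the 6, against 1.37% of all tested genes, and Scop replicate 3 stood apart as the lowest Scop library in 0 of the 6, against 1.77%. The median tested gene varied 1.35-fold between its highest and lowest library. The patterns counted here were taken from these same genes, which vary together. The counts therefore describe them and are neither a test nor separate observations.

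All 10 pairs among these 5 genes were correlated over the 8 libraries, with Pearson's r between 0.83 (Slc4a4 with Atp1b1) and 0.97 (Slc4a4 with Car3) on log2(FPKM + 1). Their adjusted p ran from 0.000893 to 0.0262 by exact two-sided permutation, adjusted over 36 correlations. Spearman's rho lay between 0.905 and 1, with exact permutation adjusted p from 0.000595 to 0.0164. With group means subtracted, an alternative added after the data were seen, r was 0.84 to 0.98, so it did not rest on the difference between group means. ICI replicate 1 made up most of the ICI spread of these genes. The subtraction therefore does not show that the pairs varied together in each group. Without the 2 libraries farthest from the median of the first gene, r was 0.70 to 0.98 over 6 libraries. Atp1b1 with Car3 (0.70, exact permutation p 0.118) and Slc4a4 with Cdh2 (0.78, exact permutation p 0.0708) then missed an unadjusted threshold of 0.05. With only 6 libraries, such a miss does not show that a pair rests on those left out. With ICI replicate 1 and Scop replicate 3 left out and p adjusted over the 36, only Slc4a11 with Atp1b1 and with Car3 passed (exact permutation adjusted p 0.025 each). The other 8 pairs had r of 0.78 to 0.92 and exact permutation adjusted p of 0.05 to 0.255. Without ICI replicate 1, 4 pairs missed it after adjustment: Slc4a4 with Atp1b1 (r 0.73), Slc4a4 with Cdh2 (0.77), Atp1b1 with Car3 (0.79) and Car3 with Cdh2 (0.85). Without Scop replicate 1, Slc4a4 missed it with Atp1b1 (0.81) and with Cdh2 (0.82), and without Scop replicate 4, Slc4a4 missed it with Cdh2 (0.83). Leaving out ICI replicate 4 put Slc4a4 with Cdh2 (0.85) at the threshold, not under it (exact permutation adjusted p 0.05).

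The other 18 pairs, which involve Car2, Alcam or Ptn, gave r between 0.08 and 0.78, and 0 of them passed as tested. The highest was Slc4a4 with Alcam, at 0.78 (rho 0.81, exact permutation adjusted p 0.0555 and 0.0713; r 0.72 without the 2 farthest libraries). That pair passed with a pseudocount of 0.1 (0.79, exact permutation adjusted p 0.0480) and without ICI replicate 3 (0.86, exact permutation adjusted p 0.0435). With group means subtracted its r was 0.82. No p is given for that setting, since permuting over all 8 libraries is not exact once group means are removed. No other of the 18 pairs passed in any alternative run. Alcam and Ptn did not track each other, with r 0.10 and rho -0.07 (exact permutation adjusted p 0.868 and 0.907; r 0.20 without the 2 farthest libraries).

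**Figure D3:**
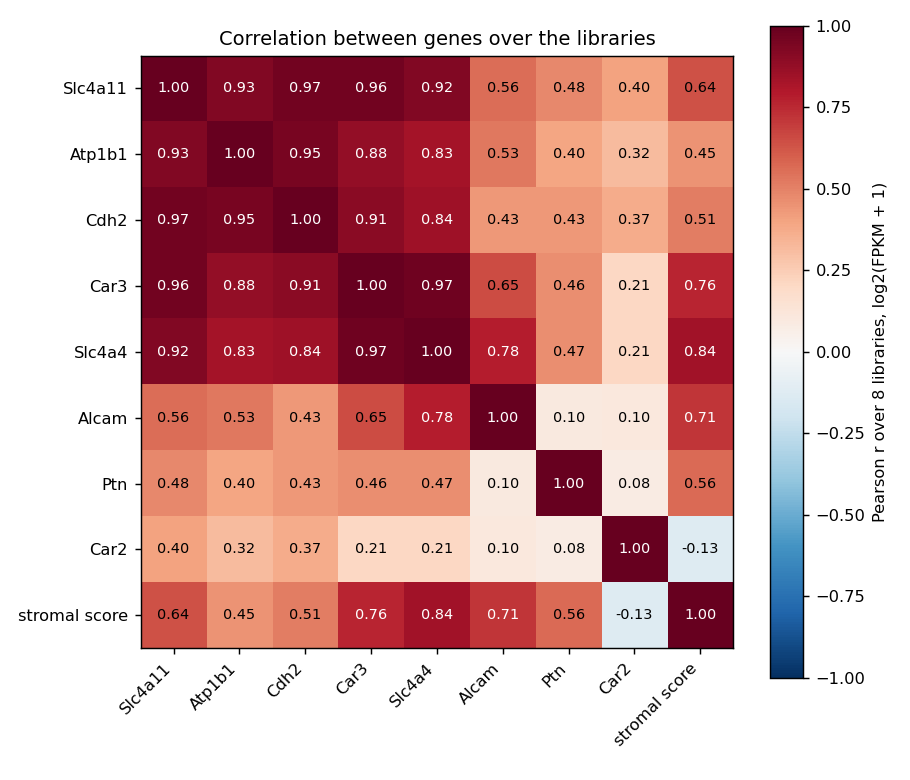
Pearson correlation of log2(FPKM + 1) over the 8 libraries for each pair of the 8 genes and for each gene with the stromal score, the mean of 9 keratocyte genes. The block of Slc4a11, Slc4a4, Atp1b1, Car3 and Cdh2 holds values of 0.83 and above, and the highest pair with Car2, Alcam or Ptn is 0.78.

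The genes most like each member were sought among the 7180 genes averaging 5 FPKM or more, by Pearson's r over the 8 libraries, as a description. For Slc4a11 these were Timp3, an inhibitor of matrix proteases (r 0.99), and Npnt, nephronectin of the extracellular matrix (0.98). Timp3 had 81.1, 31.0, 32.1 and 32.6 FPKM in ICI replicates 1 to 4, against 53.1, 39.2, 22.9 and 27.6 FPKM in Scop replicates 1 to 4. Slc4a4 was most like Ednrb, an endothelin receptor (0.98). Atp1b1 was most like the urea transporter Slc14a1 and the matrix protein gene Smoc1 (both 0.98). Car3 was closest to Gpc4, a cell surface proteoglycan (0.98), and Cldn10, a claudin of tight junctions (0.98). Cdh2 was closest to Smoc1 (0.99) and Timp3 (0.98). Cldn10 had 44.6, 14.9, 18.0 and 16.6 FPKM in ICI replicates 1 to 4, against 27.7, 20.2, 7.49 and 13.7 FPKM in Scop replicates 1 to 4.

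Other genes were closest to the remaining members. Alcam was most like Mosmo (0.97) and Tcf12, a transcription factor (0.96), Ptn like Ass1, an enzyme of arginine synthesis, and Elp2 (both 0.93), and Car2 was like Gga1 (0.91). The number of genes with r of at least 0.9 was 32 for Slc4a11, 55 for Slc4a4, 24 for Atp1b1, 37 for Car3 and 23 for Cdh2, and 17 for Alcam, 5 for Ptn and 3 for Car2. These are from 0.0418% (Car2) to 0.766% (Slc4a4) of the 7180 genes searched. In so wide a search over 8 libraries some genes reach such an r by chance, and the number expected was not computed.

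The 6 lists of related genes held 76 names, of which 70 were in the table and 45 were tested. By limma with Benjamini-Hochberg adjustment, 0 of the 45 were called in either direction. At an unadjusted p under 0.05 there were 3 (6.67%), against 12% of all tested genes. The fold changes of 25 were positive and of 20 negative, while 55.4% of all tested genes were negative around a median of -0.02. Leaving out 1 library turned the sign of the median fold change in 5 of the 6 lists, the exception being the SLC4 and SLC9 transporters (-0.09 to -0.06).

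The list of other endothelial markers and dystrophy genes had 11 tested members, 9 with positive and 2 with negative fold changes and a median of 0.17. That median was -0.0369 without Scop replicate 3, 0.00901 without ICI replicate 1, and -0.0802 with the stromal score as a covariate. Of these 11, 5 (Col8a1, Col8a2, Gpc4 and Ncam1 among them) were highest in ICI replicate 1 and lowest in Scop replicate 3, as were 5.83% of all tested genes. ICI replicate 1, Scop replicate 1 and Scop replicate 2 were the 3 highest libraries in 5 of the 11, against 4.54% of all tested genes. Col8a2, a collagen of Descemet's membrane on which the endothelium rests, had 85.4, 37.2, 38.8 and 35.9 FPKM in ICI replicates 1 to 4, against 60.7, 44.9, 25.9 and 38.3 FPKM in Scop replicates 1 to 4. Col8a1, its partner chain, had 14.6, 3.83, 3.81 and 4.33 FPKM in ICI against 8.32, 4.50, 1.599 and 3.30 FPKM in Scop, in the same order of replicates. The transcription factor Foxc1 (32.9 ± 3.396 FPKM in ICI and 34.8 ± 2.98 in Scop) and the junction scaffold Tjp1 (31.7 ± 1.49 FPKM in ICI and 31.1 ± 2.07 in Scop) varied far less.

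**Figure D4:**
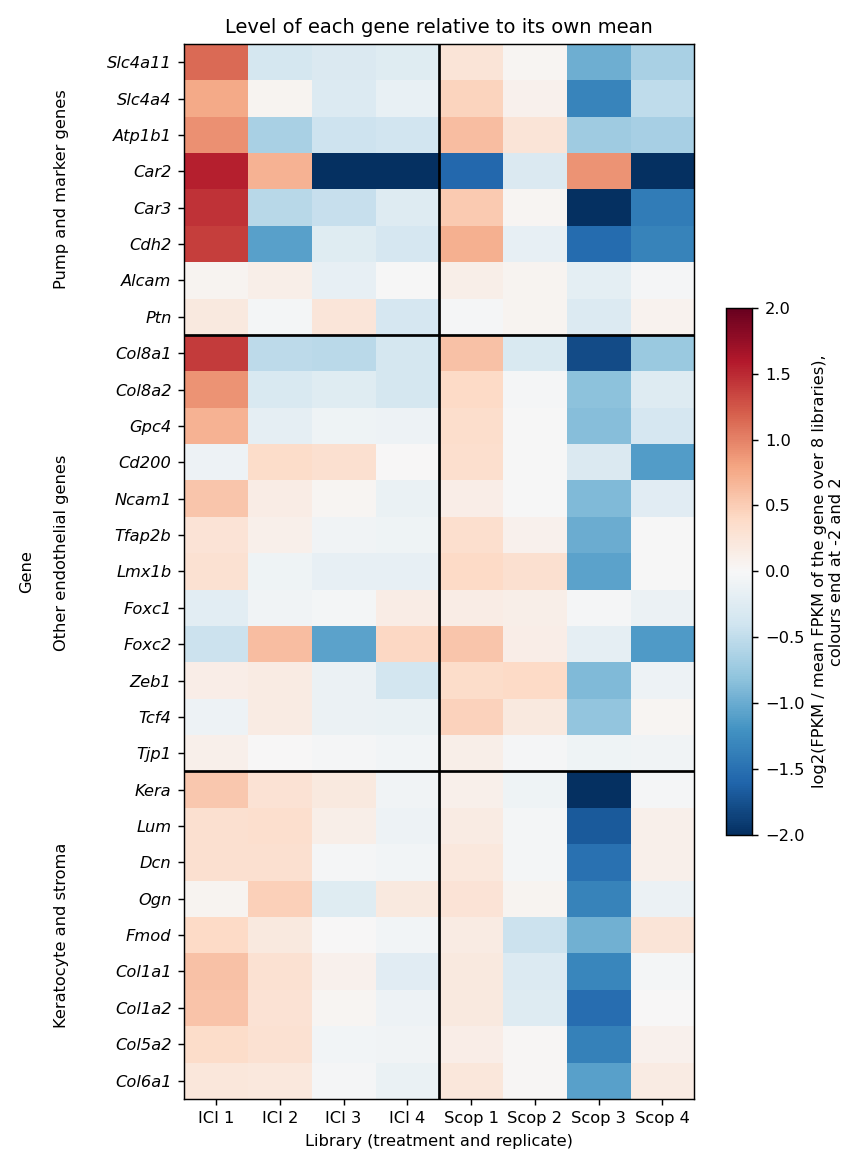
Log2 ratio of each gene's FPKM in a library to its own mean over the 8 libraries, for the 8 genes (top), 12 other endothelial genes (middle) and 9 keratocyte and stromal genes (bottom), ICI left of Scop. Red is above and blue below the mean, and colours end at -2 and 2. ICI replicate 1 is red in Slc4a11, Slc4a4, Atp1b1, Car3, Cdh2, Col8a1 and Col8a2, and Scop replicate 3 is blue in these and in all 9 stromal genes.

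Of the other subunits of the sodium pump and its FXYD regulators, 7 were tested, 4 with positive and 3 with negative fold changes (median 0.07). That median was -0.0375 without Scop replicate 3 and -0.0532 with the stromal score as a covariate. None of the 7 had the 3 highest libraries of Atp1b1, and 2 were highest in ICI replicate 1 and lowest in Scop replicate 3. The beta 3 subunit gene Atp1b3 was at 249.3 ± 9.72 FPKM in ICI and 251 ± 18.3 in Scop, and the regulator Fxyd3 at 249.99 ± 14.6 FPKM in ICI and 238 ± 14.4 in Scop. Per length, Atp1b3 was thus well above Atp1b1 in mean level, with a smaller SD relative to its mean.

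Among other acid-base transporters of the SLC4 and SLC9 families, 1 of 4 tested genes had a positive and 3 a negative fold change (median -0.08). The anion exchanger gene Slc4a2 was at 11.5 ± 0.354 FPKM in ICI and 12.4 ± 1.004 in Scop. Slc4a7, a sodium bicarbonate cotransporter, had 3.12 ± 0.294 FPKM in ICI and 3.74 ± 0.447 in Scop (log2 fold change -0.20, SE 0.09, limma adjusted p 0.403).

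Of 6 other carbonic anhydrases tested, 3 had positive and 3 negative fold changes (median 0.01). The mitochondrial Car5b was at 47.8 ± 2.05 FPKM in ICI and 48.4 ± 5.47 in Scop, and the cytosolic Car13 at 7.50 ± 0.598 FPKM in ICI and 7.96 ± 0.553 in Scop. Car9, a membrane form induced by low oxygen in many tissues, had 2.77 ± 2.57 FPKM in ICI and 1.09 ± 0.749 in Scop. Its highest library was ICI replicate 1 at 6.63 FPKM and its lowest Scop replicate 3 at 0.408, a 16.2-fold span.

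Lactate, chloride and water transport was covered by 7 tested genes, 4 with positive and 3 with negative fold changes (median 0.01). Aqp1, a water channel of endothelium and keratocytes, had 233 ± 65.9 FPKM in ICI and 195 ± 71.8 in Scop, with 330 FPKM in ICI replicate 1 and 90.1 in Scop replicate 3. Bsg, the chaperone of lactate carriers, was at 232 ± 44.7 FPKM in ICI and 204 ± 16.0 in Scop, and the chloride cotransporter gene Slc12a2 at 77.1 ± 2.93 FPKM in ICI and 76.6 ± 1.43 in Scop. The lactate carrier gene Slc16a1 had 1.48 ± 0.264 FPKM in ICI and 2.04 ± 0.424 in Scop (log2 fold change -0.29, SE 0.12, limma adjusted p 0.369).

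The partners of Cdh2, Alcam and Ptn numbered 10 tested genes, 4 with positive and 6 with negative fold changes (median -0.01). The heparan sulfate proteoglycan gene Sdc1 was at 556 ± 25.1 FPKM in ICI and 574 ± 12.3 in Scop. The catenin gene Ctnnb1 was at 192 ± 9.77 FPKM in ICI and 192 ± 5.84 in Scop, and Jup, another catenin gene, at 169 ± 8.30 FPKM in ICI and 181 ± 18.5 in Scop. Alk, a receptor linked to pleiotrophin, had 0.967, 1.06, 0.878 and 0.959 FPKM in ICI replicates 1 to 4, against 0.634, 0.863, 0.556 and 0.598 FPKM in Scop replicates 1 to 4. These groups did not overlap, but the log2 fold change of 0.24 (SE 0.08) had a limma adjusted p of 0.304. Over the 6 lists, 2 of 45 tested genes (4.44%) had groups that did not overlap, Alk and Ctnnd1, against 6.98% of all tested genes.

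Markers of other cells moved with some libraries. The summed FPKM of 9 keratocyte and stromal genes lay between 1699 and 2325 in ICI and between 624 and 2037 in Scop, with the lowest value in Scop replicate 3 and the highest in ICI replicate 1. The 5 genes that varied together were also lowest in Scop replicate 3 and highest in ICI replicate 1. The next highest library was ICI replicate 2 for the stromal genes (2213) and Scop replicate 1 for the 5 genes. The stromal score correlated with Slc4a4 at r 0.84 (exact permutation adjusted p 0.0262), but with rho 0.62 (exact permutation adjusted p 0.318) and with r 0.34 once ICI replicate 1 and Scop replicate 3 were left out. Without Scop replicate 3 that r was 0.65, and it missed the threshold too without ICI replicate 1 (0.84) or Scop replicate 1 (0.84). The other 7 genes did not pass with the score, at r -0.13 to 0.76. Alcam did pass without Scop replicate 2 (0.73), and Car3 without ICI replicate 2 (0.81). With group means subtracted, r with the score was 0.77 for Alcam. With the score as a covariate, the log2 fold change was 0.06 for Slc4a11, -0.03 for Slc4a4, -0.30 for Atp1b1 and 0.12 for Car3.

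The 6 corneal epithelial genes summed to 34776 to 36763 FPKM in ICI and to 34408 to 39974 in Scop, highest in Scop replicate 3, and all 6 were abundant. Other marker sums were small or overlapped. They lay at 1.31 to 1.91 FPKM in ICI and 1.30 to 1.76 in Scop for 6 pigment cell genes (Oca2 at 0), 1.89 to 2.83 in ICI and 2.05 to 2.80 in Scop for 5 lens genes, and 1.34 to 2.05 in ICI and 1.30 to 2.16 in Scop for 6 skeletal muscle genes. Sums were 0.0587 to 0.399 FPKM in ICI and 0 to 0.385 in Scop for 4 adipocyte genes, 59.7 to 64.5 in ICI and 59.0 to 72.8 in Scop for 5 Schwann cell genes, and 6.31 to 7.56 in ICI and 5.66 to 9.88 in Scop for 5 vascular endothelial genes. Erythroid genes summed to 2.21 to 7.14 FPKM in ICI and 2.17 to 6.76 in Scop, and leukocyte genes to 26.5 to 29.6 in ICI and 21.4 to 33.6 in Scop. Ribosomal RNA loci summed to 3826 to 3995 FPKM in ICI, against 717 to 5113 in Scop, where only replicate 4 exceeded the ICI libraries. With the score of these loci as a covariate, the log2 fold change was 0.79 for Slc4a11, 0.66 for Slc4a4, 0.57 for Atp1b1 and 1.67 for Car3. Their limma adjusted p were 0.719, 0.711, 0.782 and 0.668, in that order. Apart from Scop replicate 4, these loci separated the groups, so this fit can hardly tell score and treatment apart. Whether these differences take part in the values of the 8 genes was not tested.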

How the data were processed

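Per the labels' protocols, total RNA (Qiagen RNeasy) went into Vazyme VAHTS libraries that were read on an Illumina NovaSeq. The tools fastp, HISAT2 and HTSeq and the build mm10 are named, per the submitters' processing notes. Their versions, the annotation and the strandedness are not stated there. The values are FPKM in a single table that the authors deposited, whose column titles gave group and replicate. FPKM sums lay between 434149 and 448239 per library.

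Whole fragments were worked out from the steps in FPKM between libraries (ratio tolerance 5e-13, taken as whole within 0.01) for 99.7% of genes above 0. Slc4a11 was among the 57 genes without them. FPKM are not counts, so the main test was limma's moderated linear model with a variance trend (version 3.58.1, R 4.3.3) on log2(FPKM + 1). The fit covered the 12100 genes averaging 0.5 FPKM or more, and the script was tested on simulated data. Correlations over the 8 libraries used exact permutation tests (scipy 1.17.1), two-sided and adjusted by Benjamini-Hochberg. Coding sequences were aligned with Biopython 1.88.

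The members and lists were chosen with earlier results of these data known. Named genes were the 8 members, the 3 genes of highest mean FPKM in each list, the 2 genes most like each member and the cell markers; a few results under this rule are not reported here. Col8a1, Gpc4, Ncam1, Nme7, Alk, Ctnnd1, Ptprz1, Slc16a1, the muscle and fat genes singled out and the genes called under alternatives were named after their values were seen.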

Additional observations from a re-analysis of the deposited data

Results flagged for a closer look

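Within each group of 4 libraries, the gap between an extreme library and its nearest neighbour was set against the group's range for the 8 genes, 16 groups of values in all, by Dixon's criterion at its 95% critical value for 4 samples. Chance passes this limit in about 1 group in 20. It was passed 3 times, each time by ICI replicate 1 as the highest ICI library. Slc4a11 was at 41.4 FPKM there (gap 0.952 of the range), Atp1b1 at 37.1 FPKM (0.899) and Car3 at 285 FPKM (0.924). The 3 values come from 1 library and from genes that vary together, so they are not separate observations. ICI replicate 1 passed the same limit as the highest ICI library in 1.37% of all tested genes. No Scop library passed it for the 8 genes.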

How the results depend on the processing

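None of the 6 tested genes and none of the 45 tested list genes was called under any alternative, and the lowest adjusted p of a member was 0.342 (limma, Atp1b1, ICI replicate 1 and Scop replicate 3 both left out), with 0.342 to 0.99998 for Atp1b1 over its alternatives. Over all genes, 3 were called higher and 4 lower with array weights, 0 and 1 with the stromal score as a covariate, and 5 and 10 with both libraries left out. Leaving out 1 library gave 0 to 4 higher and 0 to 2 lower, the 4 being Gm26917, AY036118, Lars2 and Malat1 without Scop replicate 4. Signs turned for Slc4a11 (-0.16), Slc4a4 (-0.11), Car3 (-0.15), Alcam (-0.0673) and Ptn (-0.0720) with both libraries left out, for Slc4a4 (-0.0347), Alcam (-0.0755) and Ptn (-0.0474) with the stromal score (Slc4a11 0.06, Car3 0.12, Atp1b1 -0.30), and for Alcam (-0.0366) and Ptn (-0.00547) with array weights. Atp1b1 turned to 0.00197 with median-ratio scaling, 0.0101 with quantile normalisation and 0.57 with the ribosomal score as a covariate, which gave 0.79 for Slc4a11, 0.66 for Slc4a4 and 1.67 for Car3. Leaving out 1 library gave fold changes of -0.34 to 0.23 for Atp1b1, -0.0487 to 0.0669 for Alcam and -0.0188 to 0.16 for Ptn, and 0.03 to 0.56 for Slc4a11, 0.08 to 0.53 for Slc4a4 and 0.32 to 1.26 for Car3. ICI replicate 1 was the highest and Scop replicate 3 the lowest library for Slc4a11, Slc4a4, Atp1b1 and Car3. Leaving out both could therefore only lower their fold changes. The ribosomal score nearly followed the group, so the fit with it can hardly tell score and treatment apart. The causes were not tested. Of 130 fold changes under alternatives, 106 kept their sign and side of the threshold. Scaling by median ratios gave 674 genes higher and 745 lower at an unadjusted p under 0.05, and quantile normalisation 728 and 717, against 552 and 903 as deposited. With the replicate number as a block, 0 genes were called (643 higher and 869 lower unadjusted). Deviations of same-numbered samples from their group means correlated at r of 0.29, -0.01, 0.14 and 0.08 for replicates 1 to 4. The best match in Scop was the same-numbered library for ICI replicates 1 and 3, but not for 2 and 4. The labels do not say whether same-numbered pools were handled together, and these values cannot settle it. The filter at 5 FPKM left no value for Slc4a4, and limma-voom none for Slc4a11. Counting depth limits Car2 (1 to 43 fragments) and, less so, Cdh2 (59 to 513).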

Other observations

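Ratios between the 8 genes within a library remove what moves both genes alike. Of 28 ratios, 2 had groups that did not overlap. The ratio of Slc4a11 to Atp1b1 was 1.12, 1.17, 1.05 and 1.06 in ICI replicates 1 to 4, against 0.743, 0.823, 0.798 and 0.963 in Scop replicates 1 to 4, or 1.33-fold higher in ICI. The ratio of Atp1b1 to Car3 was 0.130, 0.179, 0.195 and 0.174 in ICI replicates 1 to 4, against 0.202, 0.220, 0.599 and 0.315 in Scop replicates 1 to 4, a fold of 0.554. Each had a two-sided exact permutation p of 0.0286, the smallest that 4 against 4 samples allow, and an exact permutation p of 0.4 after adjustment over the 28 ratios. None passed the adjustment. At this smallest p, a few ratios alone could not pass it whatever their values, so the miss decides nothing. Both ratios hold Atp1b1, and no share of ratios without overlap was taken over other genes.

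Ptprz1, a receptor of pleiotrophin, was under the filter and so not in the main test. It had 0.0497, 0.0865, 0.0820 and 0.0727 FPKM in ICI replicates 1 to 4, against 0.151, 0.119, 0.125 and 0.147 FPKM in Scop replicates 1 to 4, with groups that did not overlap. These came from 20, 35, 33 and 28 fragments in ICI and from 62, 48, 44 and 54 in Scop. Ptprz1 was picked after its values were seen. Groups did not overlap in 6.98% of all tested genes, and no such share was taken over genes this low. Without a filter, limma (Benjamini-Hochberg) called 0 genes.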
